A study of Mus musculus with 2 samples.

Results

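The 44 genes described here are DNA replication and S phase genes, taken from a list by symbol. The list was chosen with earlier results of these data known, though its rule uses no measured value. They are 44 of the 22023 genes listed in both libraries, and all 44 had UMIs (unique molecular identifiers, each standing for 1 captured RNA molecule) in both. Single cells of fetal mouse pancreas at E15.5 were profiled with a microwell system (BD Rhapsody, whole transcriptome) in 1 wild-type library (WT) and 1 library of Mettl3pKO embryos, in which Mettl3 is deleted in Pdx1+ pancreatic progenitors. Mettl3 encodes the catalytic subunit of the m6A RNA methyltransferase. The deletion is directed at the pancreatic epithelium, so mesenchyme-like and blood cells are outside the cells it targets. The sources used here do not give the allele, the driver line, the number of embryos in each library or their pooling. Since each genotype is 1 library, genotypes were not tested against each other, every interval is an exact 95% interval that covers counting error only, and genotype, sex mix, depth and library cannot be told apart.

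S phase is the part of the cell cycle in which the genome is copied once. Before it, the Mcm2 to Mcm7 helicase is loaded at replication origins. Kinases then switch the helicase on, polymerases follow it with the Pcna clamp, and nucleotide synthesis and histone chaperones keep pace. Most of these genes are transcribed in late G1 by E2F transcription factors, once cyclin-dependent kinases have inactivated the Rb family. In the fetal pancreas trunk and acinar cells divide, whereas cells that take the endocrine path mostly leave the cell cycle.

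The promoters show a feature that the choice of genes did not use. In RefSeq's table for GRCm38.p6, 35 of the 44 genes had a window of 250 bases before to 50 after a start site, and some had several. The E2F consensus was searched on both strands as TTTCCCGC, TTTGGCGC, TTTCGCGC and TTTGCCGC, which overlap each other on opposite strands. It stood in 15 of the 39 windows (38.5%), against 2.26% of the 32851 windows of all genes. The CCAAT box stood in 69.2% of the members' windows and in 37.4% of all windows. The E2F letters were not particular to the 44 genes, since they stood in 9 of 21 windows of cell cycle entry genes (42.9%) and in 14 of 55 windows of other replication genes (25.5%), with CCAAT in 33.3% and 38.2%. In 58 windows of G2M genes (genes of G2 phase and mitosis) E2F letters stood in 3.45% and CCAAT in 79.3%. A match describes these letters and does not show that a factor binds. Among other genes followed below, Dtl held an E2F match, Fen1, Tk1, Pcna and Nasp held none, and Exo1 and Usp1 had no window. The windows of Mcm6, Mcm3 and Pclaf are printed as examples that hold such matches, with the E2F letters in capitals, on the strand of the gene. They lie at chr1:128359656-128359955 (minus strand), chr1:20820263-20820562 (minus strand) and chr9:65890073-65890372 (plus strand).
Mcm6: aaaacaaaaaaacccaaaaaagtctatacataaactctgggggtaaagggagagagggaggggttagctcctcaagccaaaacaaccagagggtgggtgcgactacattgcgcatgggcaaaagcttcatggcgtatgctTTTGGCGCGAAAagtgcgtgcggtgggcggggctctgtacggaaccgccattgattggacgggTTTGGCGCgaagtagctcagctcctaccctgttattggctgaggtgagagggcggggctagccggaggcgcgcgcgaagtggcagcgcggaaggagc
Mcm3: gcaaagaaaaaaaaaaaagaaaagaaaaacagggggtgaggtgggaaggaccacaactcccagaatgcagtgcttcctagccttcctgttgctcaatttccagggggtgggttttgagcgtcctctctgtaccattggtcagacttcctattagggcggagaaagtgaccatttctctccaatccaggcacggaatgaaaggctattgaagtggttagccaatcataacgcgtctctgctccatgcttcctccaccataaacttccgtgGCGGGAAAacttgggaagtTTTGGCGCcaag
Pclaf: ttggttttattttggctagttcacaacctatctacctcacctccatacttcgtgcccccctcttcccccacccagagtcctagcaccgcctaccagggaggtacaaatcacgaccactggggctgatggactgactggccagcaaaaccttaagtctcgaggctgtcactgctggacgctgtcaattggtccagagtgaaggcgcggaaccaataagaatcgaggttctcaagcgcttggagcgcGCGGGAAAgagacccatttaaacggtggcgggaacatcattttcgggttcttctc
Mcm6 held 3 matches, of which a pair shares the run of 12 capitals, Mcm3 held 2, and Pclaf held 1 close to its start site.

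The libraries held 6384 WT and 3624 Mettl3pKO complete cells, with 80011421 and 65779771 UMIs. Depth differed, with a median of 10824 UMIs per WT cell and 16481 per Mettl3pKO cell, so levels were compared in cells with 13000 or more UMIs, 1928 WT and 3056 Mettl3pKO cells. There Mettl3 itself was at 12.995 UMIs per 1000000 UMIs (CPM) in WT (11.8 to 14.2) and 9.14 in Mettl3pKO (8.39 to 9.95), a ratio of 0.704 (0.620 to 0.799). In acinar-like cells the Mettl3 ratio was 0.734 (0.606 to 0.892), and in the untargeted mesenchyme-like cells it was 0.694 (0.403 to 1.20). Reads taken near the 3′ end can come from outside the deleted part, whose place the sources used here do not give, so these values do not check the deletion. Cells with an Xist UMI and no Y-linked UMI were 79.3% of WT and 21.0% of Mettl3pKO acinar-like cells. The libraries shared 33 cell labels.

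Classes were rebuilt from marker genes and clusters made without the 44 genes and without other replication, G2M and histone genes, and are called X-like. The depth floor of 13000 UMIs kept unlike parts of them. It kept 924 of 1834 WT and 1859 of 2100 Mettl3pKO acinar-like cells. For duct and trunk-like cells it kept 304 of 1237 and 263 of 346, and for mesenchyme-like cells 104 of 1179 and 170 of 277. WT is thus represented by its deeper cells. The summed mesenchyme-like level was 4503 CPM with and 3328 without the floor in WT, and 5350 and 5322 in Mettl3pKO. At 10 CPM or more stood 10 of 10 acinar markers in the acinar-like class, 8 of 9 duct and trunk markers, 7 of 7 alpha, 8 of 8 beta and 7 of 8 mesenchyme markers in their own classes, in both libraries. The same marker lists named the clusters, so these counts are no independent check of the names. No cluster of these classes had more markers of another class than of its own among its 10 leading genes, although 6 of the 8 acinar-like and all 3 mesenchyme-like clusters had none of either, and a pair of duct and trunk-like clusters had 1 of their own beside 1 of glia or neurons.

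The summed level of the 44 genes differed widely between classes. Endocrine classes stood lowest and dividing progenitor, stromal and blood classes highest. In WT the lowest were delta-like cells at 530 CPM (404 to 682, 7 cells) and Fev precursor-like cells at 628 (498 to 781, 8 cells), which did not differ beyond their intervals. Beta-like cells followed at 896 (867 to 926, 223 cells) and alpha-like cells at 988 (951 to 1026, 162 cells). Endocrine progenitor-like cells, which express Neurog3, stood at 1790 (1657 to 1931, 20 cells), between the hormone cells and the acinar-like cells at 2345 (2323 to 2368, 924 cells). Without the depth floor 192 endocrine progenitor-like cells stood at 1040 (995 to 1087). Duct and trunk-like cells reached 4399 (4343 to 4456, 304 cells) and mesenchyme-like cells 4503 (4396 to 4611, 104 cells), whose intervals overlapped. Pericyte and smooth muscle-like cells stood at 5066 (4777 to 5369, 13 cells), and macrophage-like, mast-like and mesothelium-like cells between 3816 and 4105. Mesothelium-like cells stood at 4105 in 25 cells above the floor and at 2424 in all 202.

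The 5 larger classes kept this order in Mettl3pKO. Beta-like cells were lowest at 1480 CPM (1434 to 1526, 153 cells), then alpha-like cells at 1779 (1729 to 1830, 146 cells). Acinar-like cells stood at 2469 (2453 to 2485, 1859 cells), duct and trunk-like cells at 4236 (4175 to 4297, 263 cells) and mesenchyme-like cells at 5350 (5261 to 5440, 170 cells). The erythroid-like class is given by cluster, since its cells lay in different clusters in the 2 libraries. The cluster led by Car2, Hemgn and Slc4a1 held 29 WT cells at 10762 CPM and 2 Mettl3pKO cells. The cluster led by Hbb-bt and Alas2 held 20 WT cells at 1813 CPM and 45 Mettl3pKO cells at 2256 CPM.

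**Figure D1:**
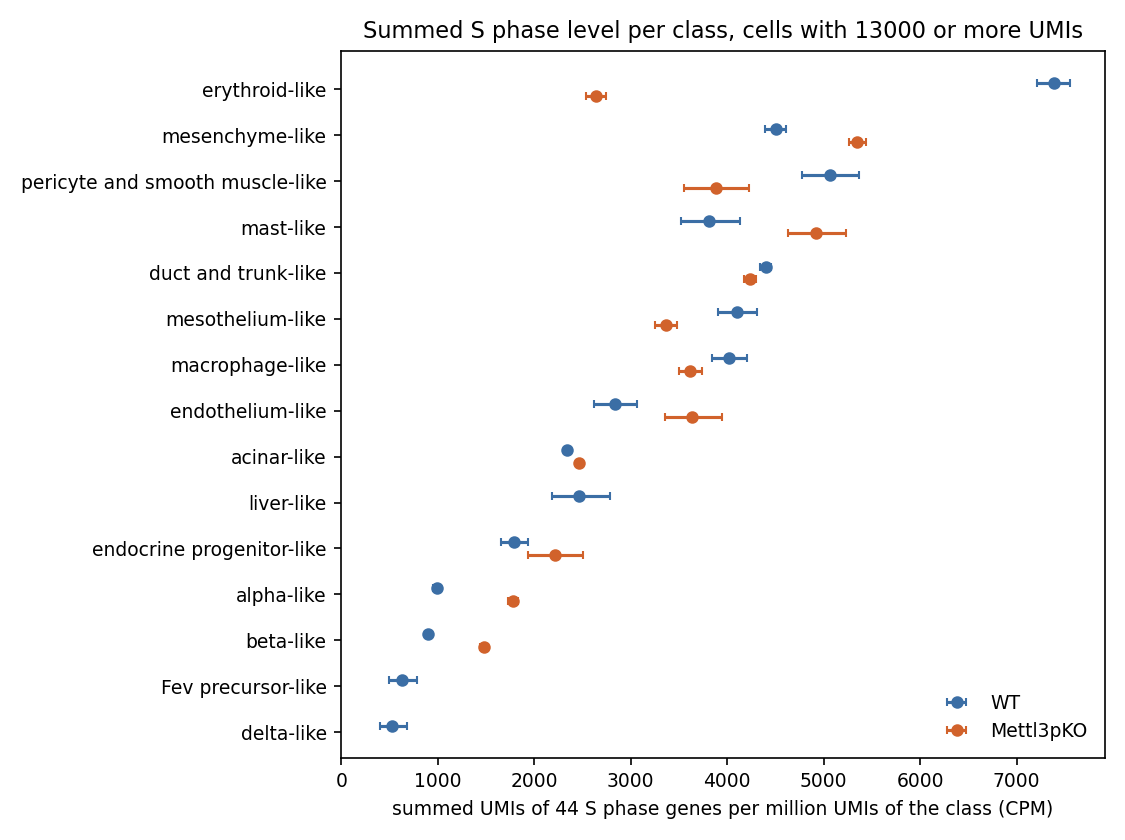
Summed level of the 44 S phase genes (horizontal axis, UMIs per 1000000 UMIs of the class) in each class and library, in cells with 13000 or more UMIs; points are pooled levels and bars exact Poisson intervals. Alpha-like and beta-like cells stand at or below 1779 CPM in both libraries and mesenchyme-like cells at 4503 and 5350, and the erythroid-like points mix different clusters in WT and Mettl3pKO.

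Acinar-like cells, which make the digestive enzymes, had nearly the same summed level in both libraries, with a Mettl3pKO/WT ratio of 1.05 (1.04 to 1.06). Beside it, acinar-like cells held a median of 7.25% (WT) and 10.7% (Mettl3pKO) mitochondrial UMIs, and the acinar markers summed to 101628 and 70417 CPM. The part of either in the acinar-like values was not tested. The direction of the summed ratio turned with the setting: it was 0.997 in cells with 16000 or more UMIs, 0.973 relative to the median gene, whose own log2 ratio was 0.11, and 0.921 in cells with only Y-linked UMIs against 1.18 in cells with only Xist UMIs. Within the 6 acinar-like clusters with enough cells in both libraries, 4 ratios lay below 1 and 2 above, from 0.869 to 1.33. The clusters were unevenly filled: that led by Serpina10, Fam83d and Gtse1 held 8.33% of WT and 35.9% of Mettl3pKO acinar-like cells, with 3171 and 2986 CPM, and still has mitotic genes among its leading genes. The cluster led by Gm10334 and Prss3 held 16.9% and 1.72%, with 652 and 866 CPM.

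Duct and trunk-like cells, the bipotent trunk and the ducts that form from it, were slightly lower in Mettl3pKO, with a ratio of 0.963 (0.944 to 0.981). It was 1.003 with 16000 or more UMIs and 1.18 in all kept cells, where WT cells are shallower. Mesenchyme-like cells, which the deletion does not target, were higher in Mettl3pKO at 1.19 (1.15 to 1.22). The difference in mesenchyme-like cells was thus larger than that in either targeted class above.

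Single genes differed in ratio inside these sums, though with the depth floor a smaller share of them was called than of all measured genes. A gene was called at a 1.5-fold ratio with 20 or more UMIs over both libraries. In acinar-like cells 4 of the 44 were called higher and 0 lower, against 17.7% of all measured genes higher and 8.04% lower, a share below the background. Their median log2 ratio was 0.04, beside 0.11 over all genes. The duct and trunk-like class had 3 called higher and 0 lower, against 12.1% and 6.96%, with a median log2 ratio of -0.08 beside 0.06. In mesenchyme-like cells 1 was called higher and 0 lower, against 7.26% and 4.8%, with 0.20 beside 0.02. Without the depth floor, where WT cells are shallower, the calls were all higher and numbered 10 in acinar-like cells (against 21.4% of all genes), 7 in the duct and trunk-like class (12.2%) and 28 in mesenchyme-like cells (8.21%). Divided by the median gene, the acinar-like calls became 1 higher and 1 lower.

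Among origin licensing and helicase genes the acinar-like sum was level, at 601 CPM in WT and 605 in Mettl3pKO (ratio 1.01, 0.985 to 1.03). It was lower in duct and trunk-like cells, 1201 against 1043 CPM (0.869, 0.836 to 0.902). Mcm6, a helicase subunit whose promoter is printed above, was at 126 CPM in WT and 107 in Mettl3pKO acinar-like cells (0.850, 0.806 to 0.895). The duct and trunk-like levels of Mcm6 were 243 and 194 CPM (0.800, 0.733 to 0.873). Mcm4, another subunit, was at 173 and 129 CPM there (0.747, 0.672 to 0.830), and lay below 1 in all 8 acinar-like and duct and trunk-like clusters compared. Mcm3 was level in acinar-like cells (0.961, 0.877 to 1.05) and lower in duct and trunk-like cells (0.812, 0.716 to 0.920). Gmnn, geminin, which blocks a second round of licensing, went the other way in acinar-like cells, 91.5 against 114 CPM (1.25, 1.18 to 1.32), with 151 and 136 CPM in the duct and trunk-like class (0.899). Mcm10 and Gins2, which act as the helicase is switched on, were at 1.23 (1.09 to 1.38) and 1.23 (1.08 to 1.39) in acinar-like cells. These pooled directions did not hold in every cluster: of the 8 acinar-like and duct and trunk-like clusters Mcm10 was above 1 in 3, Gins2 in 5 and Gmnn in 4, and Mcm6 was below 1 in 7. Mcm2, Mcm5, Mcm7, Cdc45 and Cdc6 lay between 0.874 and 1.02 in the pooled acinar-like cells. By cluster each of them lay on both sides of 1. Mcm2 ran from 0.759 to 1.20, Mcm5 from 0.683 to 1.55 and Mcm7 from 0.615 to 1.94. Cdc45 ran from 0.492 to 2.31 and Cdc6 from 0.752 to 1.32.

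Polymerase, clamp and fork genes also summed to the same acinar-like level, 714 and 719 CPM (1.01, 0.986 to 1.03), while their members parted. Fen1, the flap endonuclease that trims Okazaki fragments, was at 120 CPM in WT and 181 in Mettl3pKO acinar-like cells (1.52, 1.44 to 1.59). Fen1 levels in the duct and trunk-like class were 61.02 and 106 CPM (1.74, 1.51 to 2.01). Fen1 was higher in Mettl3pKO in all 8 clusters, from 1.10 to 1.83. Pclaf, a small protein that binds the Pcna clamp, was at 139 and 97.0 CPM in acinar-like cells (0.697, 0.662 to 0.733), and at 388 and 329 in the duct and trunk-like class (0.848, 0.793 to 0.907). In mesenchyme-like cells Pclaf was higher in Mettl3pKO instead (1.26, 1.16 to 1.36). Pcna, the clamp itself, was at 153 and 133 CPM in acinar-like cells (0.868, 0.828 to 0.910) and at 262 and 208 in the duct and trunk-like class (0.792, 0.728 to 0.862). Pola1, the catalytic subunit of DNA polymerase alpha, was at 24.96 and 19.1 CPM in acinar-like cells (0.764, 0.678 to 0.862). Pold3, a polymerase delta subunit, was at 1.22 (1.12 to 1.34) in acinar-like cells, with a duct and trunk-like ratio of 1.26 (1.10 to 1.43). Prim1, Rfc2, Rpa2, Tipin, Clspn and Dscc1 lay between 0.899 and 1.12 in acinar-like cells.

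Nucleotide supply genes summed to 398 and 401 CPM in acinar-like cells (1.01, 0.979 to 1.04). Tk1, the thymidine salvage kinase, stood out of the group at 35.3 CPM in WT and 56.5 in Mettl3pKO (1.60, 1.46 to 1.75). Among duct and trunk-like cells Tk1 was at 91.8 and 138 CPM (1.51, 1.34 to 1.70), and it was above 1 in 6 of the 8 clusters. Rrm2, the small subunit of ribonucleotide reductase, was level in acinar-like cells at 162 and 160 CPM (0.988, 0.944 to 1.03). Tyms, thymidylate synthase, was at 122 and 114 CPM (0.933, 0.886 to 0.983), and Rrm1 was at 0.897 (0.841 to 0.958).

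Chromatin and DNA methylation upkeep genes were at 303 and 294 CPM in acinar-like cells (0.970, 0.939 to 1.002) and at 723 and 623 in the duct and trunk-like class (0.862, 0.820 to 0.905). Nasp, a chaperone of histones H3 and H4, was the lowest of them, at 116 and 92.1 CPM in acinar-like cells (0.793, 0.751 to 0.838). The duct and trunk-like class had Nasp at 261 and 193 CPM (0.742, 0.680 to 0.808), and in mesenchyme-like cells it was at 1.15 (1.01 to 1.32). Uhrf1, which guides maintenance methylation to newly copied DNA, was at 56.6 and 64.7 CPM in acinar-like cells (1.14, 1.06 to 1.23). Hells, a chromatin remodeler, was level in acinar-like cells and lower in duct and trunk-like cells (0.769, 0.673 to 0.878). Chaf1b, Cdca7 and Slbp lay between 0.957 and 1.17 in acinar-like cells.

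Repair genes had the highest ratio of the role groups in acinar-like cells, at 221 and 317 CPM (1.43, 1.38 to 1.49), with 6 of 6 ratios above 1. Their sum was also higher in duct and trunk-like cells, 404 and 546 CPM (1.35, 1.27 to 1.43), with 4 of 6 above 1. Exo1, an exonuclease of mismatch repair and DNA end resection, had the highest ratio of the 44 in both classes. It was at 30.7 CPM in WT and 63.6 in Mettl3pKO acinar-like cells (2.07, 1.89 to 2.28). Duct and trunk-like cells had Exo1 at 48.5 and 132 CPM (2.71, 2.34 to 3.15). In mesenchyme-like cells it was level, at 49.7 and 47.0 CPM (0.945, 0.703 to 1.28), though it was at 1.66 (1.37 to 2.00) without the depth floor and at 1.75 (0.984 to 3.36) in cells with low doublet scores. Exo1 was above 1 in all 8 acinar-like and duct and trunk-like clusters, from 1.06 to 3.08. Usp1, which removes ubiquitin from Pcna and Fancd2, was at 91.2 and 127 CPM in acinar-like cells (1.39, 1.32 to 1.47), at 1.36 (1.24 to 1.49) in duct and trunk-like cells, and at 1.31 (1.14 to 1.52) in mesenchyme-like cells. Brip1, a helicase that works with Brca1, was at 1.42 (1.20 to 1.70) in acinar-like cells and, with Usp1, Exo1 and Fen1, above 1 in all 8 clusters. The cluster led by Serpina10, Fam83d and Gtse1 held 8.33% of WT and 35.9% of Mettl3pKO acinar-like cells. In it Exo1 was at 1.06 (0.901 to 1.24), Usp1 at 1.06 (0.936 to 1.21) and Brip1 at 1.15 (0.791 to 1.74). These intervals include 1, and Fen1 was at 1.12 (1.01 to 1.25) there. The part of the cluster mix in the pooled ratios was not tested. Ung, which removes uracil from DNA, was at 47.7 and 58.0 CPM in acinar-like cells (1.22, 1.12 to 1.32), at 0.893 (0.762 to 1.04) in duct and trunk-like cells, and had the highest ratio of the 44 in mesenchyme-like cells (1.67, 1.20 to 2.34). Blm and Rad51ap1, of homologous recombination, were at 1.31 and 1.29 in acinar-like cells.

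The cyclin, E2F and remaining genes summed to 108 and 132 CPM in acinar-like cells (1.23, 1.16 to 1.29) and were level in the duct and trunk-like class (0.999, 0.925 to 1.08). Among them Dtl, which targets proteins for destruction on chromatin-bound Pcna, was at 23.4 and 36.4 CPM in acinar-like cells (1.55, 1.39 to 1.73) and nearer level in duct and trunk-like cells (1.10, 0.953 to 1.27). Dtl was above 1 in 6 of the 8 clusters. Within the cluster led by Serpina10, Fam83d and Gtse1 it was at 0.932 (0.736 to 1.19), an interval that includes 1. Casp8ap2, a factor of histone gene expression, was at 22.3 and 28.3 CPM in acinar-like cells (1.27, 1.13 to 1.42). E2f8, a repressor among the E2F factors, was at 1.27 (1.12 to 1.45), and above 1 in 4 of the 8 clusters. Ccne2, Wdr76 and Ubr7 lay between 0.945 and 1.09 in the pooled acinar-like cells. By cluster, Ubr7 lay below 1 in all 8 (0.335 to 0.925), while Ccne2 (0.220 to 1.155) and Wdr76 (0.544 to 1.39) lay on both sides.

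The mesenchyme-like class, outside the targeted cells, had 38 of 44 ratios above 1 with the depth floor and 44 of 44 without it. With the floor the median log2 ratio was 0.20, beside 0.02 over all measured genes, whose share above 1 was not counted. Besides Ung and Pclaf, the highest were Rrm2 (1.39, 1.17 to 1.66), Tk1 (1.36, 1.14 to 1.63) and Mcm5 (1.36, 1.15 to 1.61), a helicase subunit. The lowest, with Exo1, were Blm (0.809, 0.590 to 1.11), Gins2 (0.894), Hells (0.931) and Chaf1b (0.955), all with intervals that include 1, and Uhrf1 was at 1.04. Its role groups lay between 1.08 and 1.27, closer together than in the acinar-like class, where they ran from 0.970 to 1.43.

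**Figure D2:**
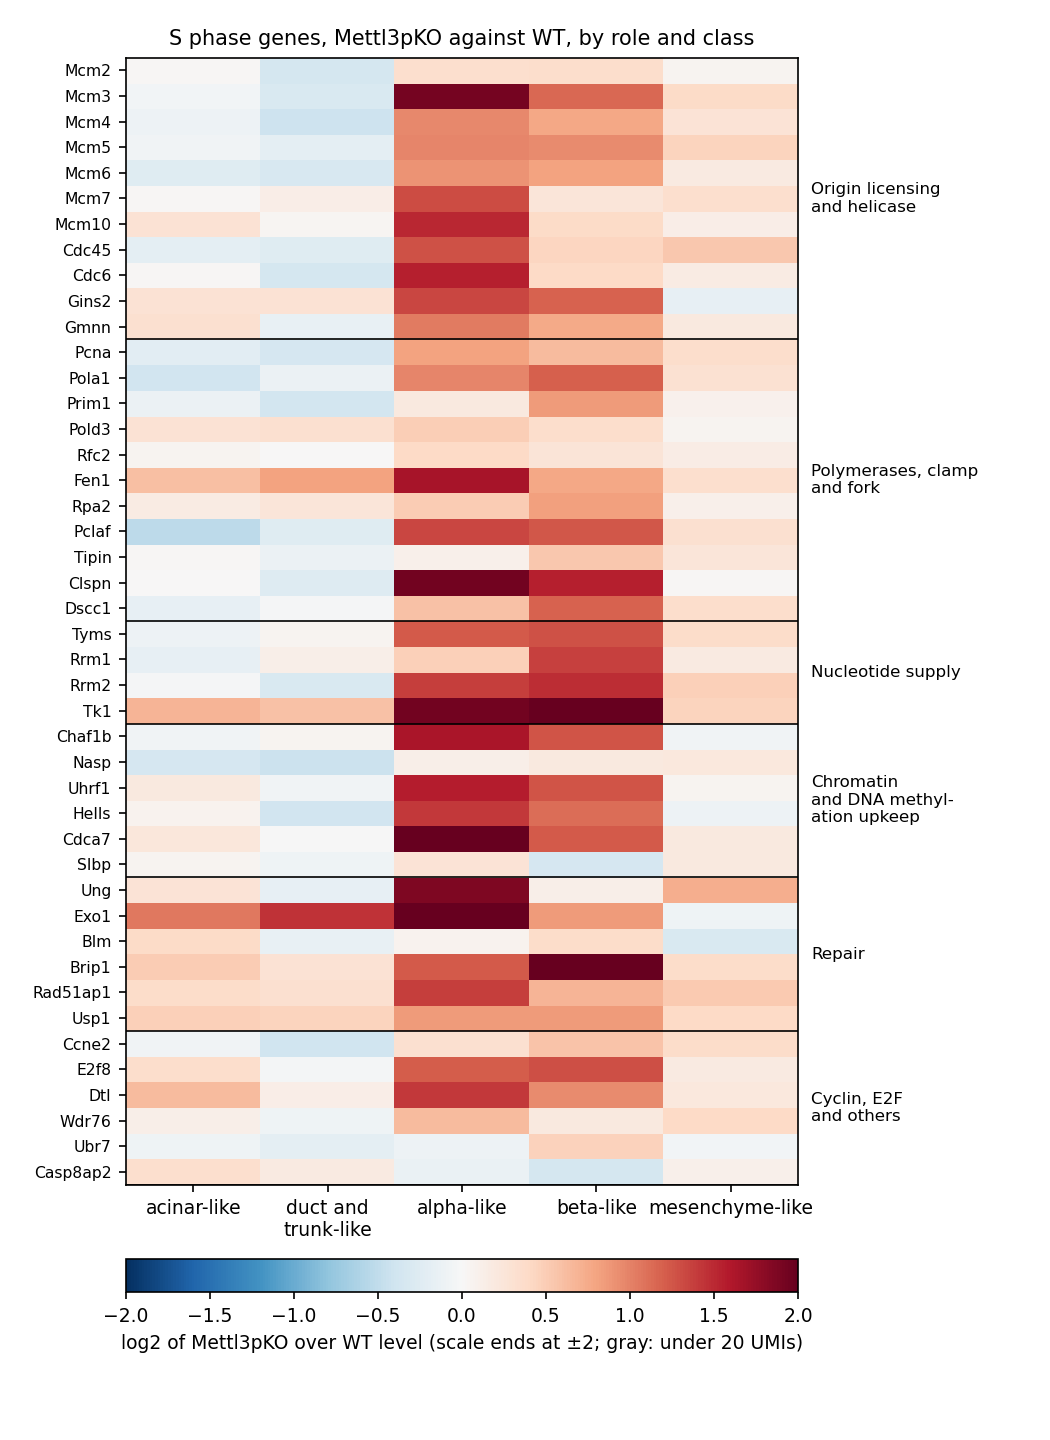
Each row is 1 of the 44 genes, grouped by role, and each column a class; color gives the log2 ratio of the Mettl3pKO to the WT level in cells with 13000 or more UMIs, red for higher in Mettl3pKO. The acinar-like and duct and trunk-like columns are pale except Exo1, Fen1, Tk1 and, in acinar-like cells, Dtl, whereas most of the alpha-like and beta-like columns are red.

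Alpha-like cells (glucagon cells) had the highest ratio of the 5 classes compared, though not among cells with doublet scores at or under their library's median, where it was 1.11, against 1.27 in beta-like and 1.45 in mesenchyme-like cells, and 8 genes were called. In all alpha-like cells above the floor the summed level was 988 CPM in WT and 1779 in Mettl3pKO, a ratio of 1.801 (1.72 to 1.89), and 31 of 44 genes were called higher and 0 lower, against 12.9% and 7.92% of all genes. Their median log2 ratio was 1.13, beside -0.05. Cdca7, which recruits Hells, had 4 UMIs in WT and 33 in Mettl3pKO (8.41, 2.99 to 32.7). Exo1 was at 5.09 and 23.3 CPM (4.59, 2.54 to 8.86), Tk1 at 6.54 and 25.6 (3.91, 2.30 to 6.98), Mcm3 at 9.45 and 36.3 (3.84, 2.47 to 6.17) and Fen1 at 26.2 and 82.2 (3.14, 2.40 to 4.16). Nasp was level at 78.5 and 85.2 CPM (1.09, 0.897 to 1.31), as were Casp8ap2, Ubr7 and Tipin, between 0.914 and 1.07, and Slbp, the histone mRNA binding protein, was at 1.21 (0.963 to 1.51).

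Beta-like cells (insulin cells) had 896 CPM in WT and 1480 in Mettl3pKO, a ratio of 1.65 (1.58 to 1.73). Here 28 of 44 genes were called higher and 0 lower, against 11.5% and 5.43%, with a median log2 ratio of 0.81 beside 0.02. Nucleotide supply led, at 67.3 and 183 CPM (2.72, 2.34 to 3.17). Within it Tk1 was at 5.08 and 21.4 CPM (4.21, 2.49 to 7.39), Rrm2 at 20.8 and 58.2 (2.80, 2.13 to 3.70), Rrm1 at 21.3 and 54.9 (2.57, 1.96 to 3.40) and Tyms at 20.1 and 48.6 (2.42, 1.82 to 3.25). Pclaf was at 63.5 and 150 CPM (2.36, 2.01 to 2.77), opposite in direction to acinar-like cells. Casp8ap2 (0.779, 0.578 to 1.04) and Slbp (0.791, 0.593 to 1.05) lay below 1 with intervals that include it, and Ung, Nasp and Rfc2 between 1.08 and 1.19.

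In the endocrine classes the share of cells with many S phase UMIs differed too. Each cell was thinned to 13000 UMIs, and a cell with 20 or more UMIs over the 44 genes was called S-rich, which is a range and not a cell type. In alpha-like cells 18 of 162 WT cells (11.1%, 6.72 to 17.0) and 43 of 146 Mettl3pKO cells (29.5%, 22.2 to 37.6) were S-rich. In beta-like cells 20 of 223 (8.97%, 5.56 to 13.5) and 31 of 153 (20.3%, 14.2 to 27.5) were. Without thinning these shares were 13.6% and 35.6% in alpha-like and 9.87% and 25.5% in beta-like cells. Cells that were not S-rich held nearly the same mean in both libraries, 6.89 and 7.17 UMIs in alpha-like and 5.19 and 5.71 in beta-like cells. S-rich cells held 48.9 and 53.5 in alpha-like and 60.8 and 64.9 in beta-like cells. These means are bounded by the split, which uses the same UMIs. Undivided, alpha-like cells had medians of 7 and 9.5 UMIs and upper quartiles of 11 and 23.75. Beta-like cells had medians of 5 and 6 and upper quartiles of 7.5 and 13. Cells with 10 or more UMIs were 30.2% and 50% of alpha-like and 15.2% and 30.1% of beta-like cells. Few cells lay near the bound, at 17 to 22 UMIs: 5 WT and 4 Mettl3pKO alpha-like cells, and 4 and 5 beta-like cells.

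Signs of mixed cells moved with these endocrine values. S-rich alpha-like cells had a median doublet score of 0.0739 in WT and 0.162 in Mettl3pKO, beside 0.00453 and 0.00772 in the other alpha-like cells, and the doublet caller did not work on Mettl3pKO. Alpha markers summed to a median of 51992 CPM in the S-rich Mettl3pKO alpha-like cells, against 110160 in the others, and 105612 in S-rich WT cells. Acinar markers summed to 2657 CPM in WT and 19001 in Mettl3pKO alpha-like cells, and 17 of the 43 S-rich and 17 of the 103 other Mettl3pKO cells held 10000 CPM or more of them. In beta-like cells mesenchyme markers summed to 112 CPM in WT and 1781 in Mettl3pKO, and the S-rich median doublet scores were 0.0120 and 0.0773. In cells with little of either marker list, chosen after the values were seen, the ratio was 1.77 in alpha-like and 1.64 in beta-like cells, and the S-rich shares were 10.8% and 22.7%, and 8.68% and 19.4%. In cells with doublet scores at or under the median of their library, also chosen afterwards, the alpha-like ratio was 1.11 (1.02 to 1.20, 127 and 81 cells), with S-rich shares of 6.30% and 4.94%. The beta-like ratio there was 1.27 (1.19 to 1.36, 175 and 97 cells), with 6.29% and 9.28%. The alpha-like difference was thus small among low-score cells. However, S-rich alpha-like cells had higher median scores than the other alpha-like cells in both libraries. Keeping low-score cells therefore also takes out S-rich alpha-like cells. In acinar-like cells the S-rich and other medians were 0.0192 and 0.0205 in WT, and 0.0360 and 0.0291 in Mettl3pKO. The smaller ratio cannot tell doublets from single S-rich cells, and the part of doublets in the alpha-like difference was not tested.

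In acinar-like cells S-rich cells were 481 of 924 (52.1%, 48.8 to 55.3) in WT and 1195 of 1859 (64.3%, 62.1 to 66.5) in Mettl3pKO. The duct and trunk-like class had 254 of 304 (83.6%, 78.9 to 87.5) and 235 of 263 (89.4%, 85.0 to 92.8), and the mesenchyme-like class 82 of 104 (78.8%, 69.7 to 86.2) and 152 of 170 (89.4%, 83.8 to 93.6). Near the bound, at 17 to 22 UMIs, were 94 and 258 acinar-like and 30 and 26 duct and trunk-like cells. The acinar-like distributions differed at the low end and not at the high end. The 10th percentile lay at 5 WT and 9 Mettl3pKO UMIs, the median 21 and 26, and the 90th percentile 68 and 64. The duct and trunk-like distributions crossed, with 10th percentiles of 16 and 19 UMIs and 90th percentiles of 132 and 113. The acinar-like share is sensitive to doublet scores too: it was 56.0% and 59.4% in the low-score cells.

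**Figure D3:**
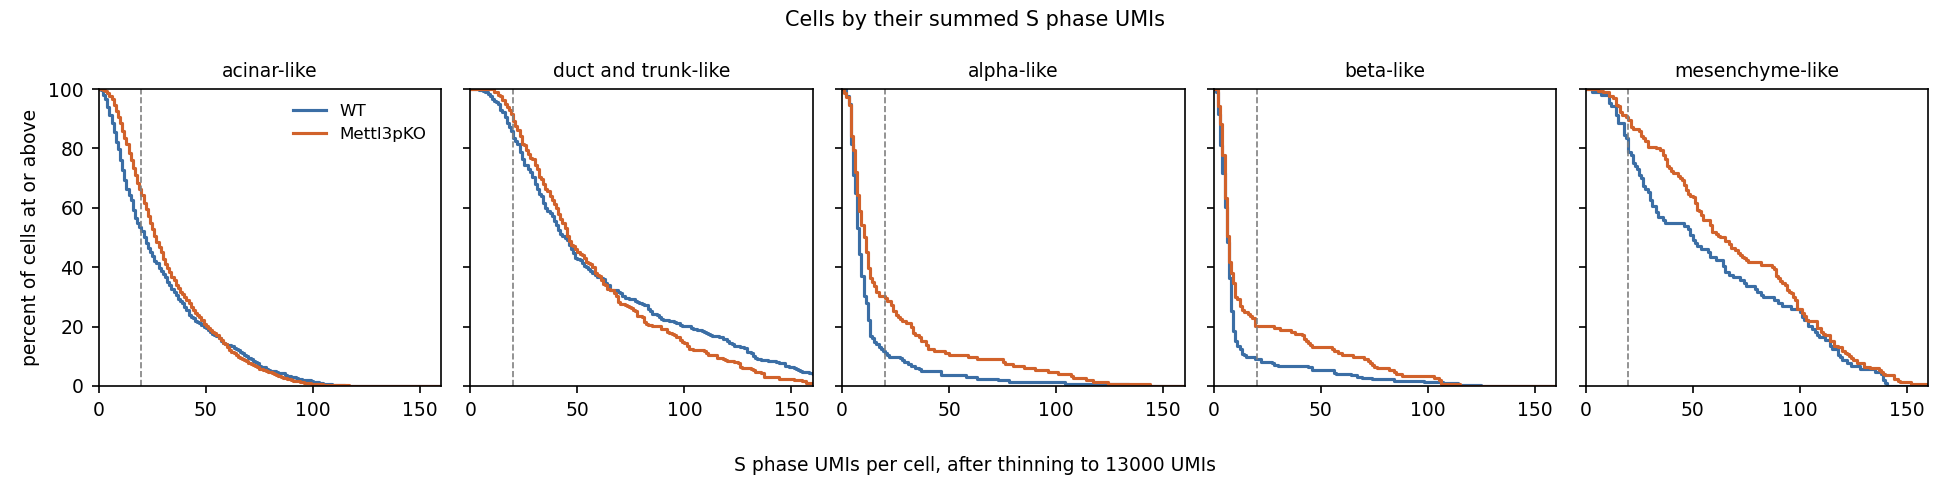
Percent of cells (vertical axis) that hold at least the number of S phase UMIs on the horizontal axis, after thinning each cell to 13000 UMIs, in 5 classes; the dashed line marks 20 UMIs. The Mettl3pKO curve lies above WT over most of the range in alpha-like and beta-like cells, and crosses it in acinar-like and duct and trunk-like cells.

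The 44 genes were carried by the same cells. Cells of a class were ranked by the sum of the other 43 genes, and each gene was compared between the top and the bottom 25% of cells. In acinar-like cells all 44 were at least 2-fold higher in the top, in WT and in Mettl3pKO, against 14.4% and 7.89% of all other measured genes. Their median log2 difference was 3.44 in WT and 2.82 in Mettl3pKO, beside 0.28 and 0.18 over other genes. Duct and trunk-like cells gave 44 of 44 in both libraries, against 6.4% and 5.08%, with medians of 3.01 and 2.16. Mesenchyme-like cells gave 42 of 42 measured genes in WT and 43 of 44 in Mettl3pKO, against 7.79% and 7.46%, with medians of 2.83 and 2.44.

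Genes differed in how sharply they marked these cells. Rad51ap1 was the sharpest in WT acinar-like cells, with 171 UMIs in the top and 2 in the bottom 231 cells, and 390 and 27 in the 464 cells of Mettl3pKO. Mcm10 had 164 and 2 UMIs in WT and 398 and 14 in Mettl3pKO. Pclaf had 985 and 31 in WT and 1459 and 54 in Mettl3pKO, and Clspn and E2f8 were sharp in both libraries, with log2 differences of 4.57 to 4.74. Least sharp by the mean of both libraries were Ubr7, with 67 and 23 UMIs in WT (log2 difference 1.52), Casp8ap2 (1.79), Tyms (1.82), Rfc2 (1.91) and Cdca7 (2.17). Their Mettl3pKO values were 1.76, 1.63, 1.89, 1.63 and 1.26, in that order, and Ung was at 2.58 in WT and 1.32 in Mettl3pKO. In Mettl3pKO 36 of the 44 genes were less sharp in acinar-like cells, 34 in duct and trunk-like and 32 in the untargeted mesenchyme-like cells. The last count includes Cdc45 and Dscc1, which had under 20 UMIs in the WT cells compared. The share of all other genes that were less sharp was not counted. From WT to Mettl3pKO the acinar-like median fell from 0.28 to 0.18 over other genes and from 2.81 to 1.73 over G2M genes. Over other genes it was 0 in both libraries of duct and trunk-like and mesenchyme-like cells. The bottom 25% of Mettl3pKO acinar-like cells held a mean of 9.51 S phase UMIs against 5.65 in WT. The top 25% held 64.2 and 65.6. Exo1 was among the 36: its log2 difference was 5.08 in WT and 3.33 in Mettl3pKO. Exo1 had 0.952 UMIs per cell in the top and 0.0260 in the bottom of WT, and 1.70 and 0.168 in Mettl3pKO, so it was higher in Mettl3pKO at both ends.

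**Figure D4:**
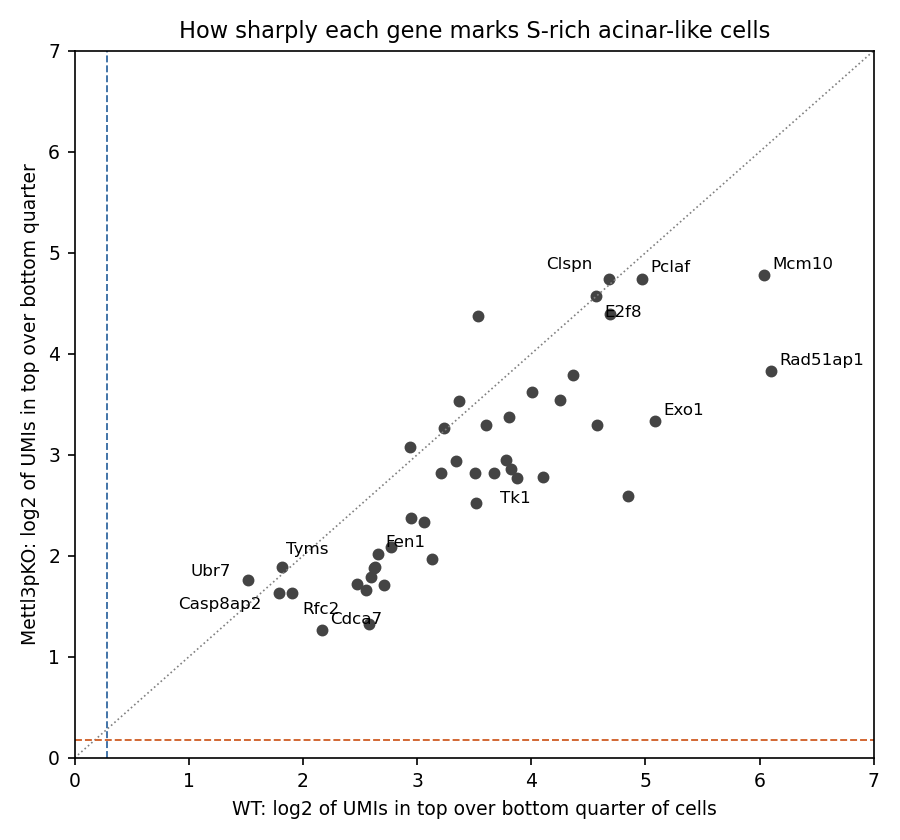
Each point is 1 of the 44 genes in acinar-like cells: the log2 of its UMIs in the top over the bottom 25% of cells, ranked by the other 43, in WT (horizontal) and Mettl3pKO (vertical). Dashed lines are the medians of all other measured genes, 0.28 and 0.18, and most points, with Exo1, Rad51ap1 and Mcm10, lie below the dotted line of equal values.

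The other cell cycle lists were followed in the same cells. Of 54 other replication genes, such as those of the origin recognition complex, 2 were called higher and 1 lower in acinar-like cells, below the background of 17.7% and 8.04%. Dbf4, the partner of the Cdc7 kinase, was at 55.2 and 99.4 CPM (1.801, 1.68 to 1.93), Brca2 at 15.8 and 26.5 (1.68, 1.47 to 1.93) and Pold2, a polymerase delta subunit, at 92.5 and 59.6 (0.644, 0.604 to 0.687). Of 22 cell cycle entry genes 4 were called higher, a share near that background, and 0 lower. Ccnd1, cyclin D1, was at 78.5 and 160 CPM (2.03, 1.92 to 2.16), and E2f3 and E2f6 were at 1.62 and 1.60. Of 8 measured cell cycle inhibitors 4 were called higher and 0 lower, among them Cdkn1a, which encodes p21, at 165 and 331 CPM (2.01, 1.93 to 2.09), Btg2 at 430 and 809 (1.88, 1.83 to 1.93) and Cdkn2d at 9.07 and 18.5 (2.04, 1.71 to 2.43). Of 61 G2M genes 8 were called higher, a share below the background, and 0 lower, with Cdca2 at 2.06, Cenpf at 1.86 and Ckap2 at 1.82. In beta-like cells 52 of 61 G2M genes were called higher, against 11.5% of all genes, and in alpha-like cells 32, against 12.9%. The counts were 4 in duct and trunk-like cells (12.1%) and 0 in mesenchyme-like cells (7.26%).

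How far G2M genes went with the S phase genes depended on the class and on the genes used. In the acinar-like top 25% of cells by S phase UMIs the G2M genes had a median log2 difference of 2.81 in WT and 1.73 in Mettl3pKO. The duct and trunk-like medians were 0.03 and -0.37, and the mesenchyme-like ones -0.60 and -0.26. Other replication genes were higher in the top cells of these 3 classes, with medians from 1.75 to 2.71. By 9 core G2M genes, chosen after the values were seen because nearly all cells held UMIs of the whole list, 552 of 924 WT acinar-like cells (59.7%) and 1296 of 1859 Mettl3pKO cells (69.7%) held 5 or more UMIs, with means of 39.3 and 37.8 S phase UMIs. Acinar-like cells with none of the 9 had a mean of 10 S phase UMIs (SD 9.15, 130 cells) in WT and 15.8 (SD 10.9, 149 cells) in Mettl3pKO. By these 9 genes the other classes went the same way: WT cells with none and with 5 or more had means of 25.4 and 69.8 S phase UMIs in duct and trunk-like, 28.7 and 67.5 in mesenchyme-like, 7.45 and 41.1 in alpha-like and 5.57 and 66.6 in beta-like cells. In alpha-like cells 10.5% of WT and 27.4% of Mettl3pKO cells held 5 or more core G2M UMIs, and in beta-like cells 6.28% and 19.0%, beside the doublet scores given above.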

How the data were processed

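The authors deposited tables of UMI counts, 1 table per library with genes in columns, made with the BD Rhapsody pipeline 1.8 per the file headers. The submitters' processing notes name mm10 and Seurat. Both tables ended inside a line, and that cell was dropped. Cells needed 200 genes and no more than 25% mitochondrial UMIs. Scrublet (scanpy 1.11.5) removed 5.37% of WT cells as doublets. It marked 0.0276% in Mettl3pKO, so it did not work there. This left 6030 WT and 3622 Mettl3pKO cells. Clusters came from 2000 variable genes, 30 components, 15 neighbours and Leiden resolution 1.0, and took the class with the highest marker score. A median doublet score over 0.1 left a cluster unnamed, a rule set after values were seen. Levels are UMIs per 1000000 UMIs of the class. Intervals are exact Poisson (levels), conditional binomial (ratios) and Clopper-Pearson (shares), and log2 ratios had 0.5 UMIs added. Named are, per class, the 5 highest and 5 lowest ratios by the bound nearest 1, the 5 sharpest and 5 least sharp genes, 3 per other list and 2 per role with most UMIs. The members and lists were chosen with earlier results of these data known. Ratio, interval and thinning code was tested on simulated data. Alternatives varied depth floor, cell filter, doublets, clustering, class assignment, scaling and the S-rich bound.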

Additional observations from a re-analysis of the deposited data

Results flagged for a closer look

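The summed S phase level of duct and trunk-like cells stood at 0.963 of the WT level in Mettl3pKO, while acinar-like (1.05), mesenchyme-like (1.19), beta-like (1.65) and alpha-like cells (1.801) stood above it. It was flagged because intervals for counting error put these classes on opposite sides of equality. The difference between the classes was not tested, since each genotype is 1 library, and the duct and trunk-like value lay above 1 in 3 of its 14 alternatives.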

How the results depend on the processing

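Values are Mettl3pKO/WT ratios of the summed level unless named otherwise. The settings below were applied to alpha-like and beta-like cells after the values were seen. Without a depth floor the ratios were 1.22 (acinar-like), 1.18 (duct and trunk-like, reversed), 1.90 (alpha-like), 1.83 (beta-like) and 1.60 (mesenchyme-like), the S-rich share ratios 1.85 (acinar-like) and 1.66 (duct and trunk-like), and 10 acinar-like, 7 duct and trunk-like and 28 mesenchyme-like genes passed 1.5-fold. With 16000 UMIs or more they were 0.997 (acinar-like, reversed), 1.003 (duct and trunk-like, reversed) and 1.67 (alpha-like). The stricter cell filter gave 1.02 (acinar-like), 0.998 (duct and trunk-like) and 1.96 (alpha-like). With marked doublets kept, alpha-like cells gave 1.57 and beta-like cells 1.44. Without the top 5% of doublet scores the values were 1.62 (alpha-like), 1.55 (beta-like) and 1.15 (mesenchyme-like). Leiden resolution 0.5 gave 0.898 (duct and trunk-like), and 2.0 gave 1.03 (acinar-like) and 1.495 (beta-like). Cell cycle genes in the clustering gave 1.04 (acinar-like), 0.926 (duct and trunk-like) and 1.57 (beta-like). Assigning cells by their own markers gave 0.909 (duct and trunk-like) and 1.06 (mesenchyme-like). Totals without abundant gene families gave 1.03 (acinar-like). Relative to the median gene the values were 0.973 (acinar-like, reversed, with 2 genes past 1.5-fold) and 0.923 (duct and trunk-like).

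Further settings were chosen after seeing the data. Cells with only Xist UMIs gave 1.18 (acinar-like, 7 genes past 1.5-fold) and 1.04 (duct and trunk-like, reversed, 6 genes). Cells with only Y-linked UMIs gave 0.921 (acinar-like, reversed, 10 genes) and 0.929 (duct and trunk-like, 7 genes). Cells with doublet scores at or under their library's median gave 0.928 (acinar-like, reversed), 1.11 (alpha-like), 1.27 (beta-like) and 1.45 (mesenchyme-like), S-rich share ratios of 1.06 (acinar-like) and 0.784 (alpha-like, reversed), and 8 alpha-like and 17 beta-like genes past 1.5-fold. The cause of these shifts was not tested.

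Of the 10 single genes followed, Exo1 ranged from 1.92 to 2.54 in acinar-like and from 2.40 to 3.56 in duct and trunk-like cells, and from 0.887 to 1.75 in mesenchyme-like cells, and Fen1 from 1.40 to 1.76 and from 1.53 to 2.35. Reversed were Pcna in acinar-like cells (1.03) and Pclaf in duct and trunk-like cells (1.24) without a floor, Pclaf in mesenchyme-like cells assigned by their own markers (0.9897), and Mcm6 (1.06) and Pcna (1.01) in duct and trunk-like cells with only Xist UMIs. No paired analysis was possible because each genotype has 1 library. No library could be left out for the same reason. Mesenchyme-like values rest on 104 WT cells above the floor, and classes with fewer than 30 cells per library were not compared.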
